A study of Mus musculus with 20 samples.

Results

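The clustered protocadherins were followed in whole dorsal root ganglia (DRG), the sensory ganglia beside the spinal cord, of mouse embryos. Members were all genes whose symbol begins with Pcdha, Pcdhb or Pcdhg followed by a, b, c or a number, and 25 of the 37620 genes in the expression table met this rule: 2 from the alpha cluster, 22 from the beta cluster and 1 from the gamma cluster. The libraries came from 10 C57Bl6 embryos at E18.5, late in gestation, 5 male and 5 female, with no allele or agent named in the labels. Each embryo gave 1 lumbar library (ganglia L4-L5) and 1 sacral library (ganglia L6-S1), so that each sex had 5 libraries of each kind and the levels could be compared within an embryo. The ganglia were neither sorted nor dissociated and hold neurons, satellite glia, Schwann cells, vessels and connective tissue, and the labels do not say which embryos were littermates. The study asked which genes distinguish the sacral ganglia, which contain most of the sensory neurons of the pelvic organs, from the lumbar ganglia, which chiefly serve the hind limb, and whether males and females differ at either level.

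Clustered protocadherins are cadherin-like adhesion proteins of the neuronal surface that bind preferentially to the same isoform on a facing cell. Each alpha or gamma transcript joins 1 variable first exon, with its own promoter, to constant exons shared by its whole cluster, whereas each beta gene is a transcript of its own and has no shared constant exon. Individual neurons switch on a small random set of the variable promoters, a choice tied to CTCF and cohesin looping and to DNA methylation, and the resulting surface code lets neurites of a cell recognise and avoid themselves. The C-type isoforms at the ends of the alpha and gamma clusters are instead expressed in most neurons, and the gamma proteins are known for the survival of spinal interneurons.

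The expression table did not give the 3 clusters with the same resolution. All members lie on the plus strand of mouse chromosome 18 (mm9) over 912 kb, in the order alpha, beta, gamma. Apart from Pcdha3, the alpha cluster was given as 1 row, annotated as Pcdha11 (ENSMUSG00000007440, chromosome 18, 37089939 to 37347311). Its 10 transcripts hold 9 variable first exons and 2860 bases of shared constant exon. Pcdha3 (ENSMUSG00000091969, 37105801 to 37108685) had a row of its own with 2 exon blocks, which do not overlap the exons of Pcdha11 and so hold no shared constant exon. The gamma cluster was a single row annotated as Pcdhgc5 (ENSMUSG00000023036, 37833989 to 38001527) with 10 transcripts, 9 distinct first exons and 2119 bases of constant exon. This row has 11 exon blocks, 3 of them constant, so a first exon overlaps a constant one and not all 9 need be variable. These merged rows are called the alpha row and the gamma row here. By comparison RefSeq names 14 alpha, 22 beta and 22 gamma genes, so single alpha isoforms other than Pcdha3, all gamma isoforms and the C-type isoforms Pcdhac1, Pcdhac2, Pcdhgc3, Pcdhgc4 and Pcdhgc5 have no separate value here. The 22 beta genes, Pcdhb1 (37424652 to 37427108) through Pcdhb22 (37678007 to 37681073), each had a row, and 20 of the 22 consisted of a single unbroken exon. Pcdhb20 is typed as a pseudogene in the annotation used.

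Beta exons resemble each other, which bears on counts made from uniquely mapping reads. Between 0% and 12.0% of the 50-base windows in a beta exon occurred elsewhere in the protocadherin locus, the largest share being that of Pcdhb12. With 100-base windows no beta member exceeded 2.54%, the share of Pcdhb6. Pcdha3 shared 15.2% of its 50-base windows and 7.81% of its 100-base windows. Only uniquely mapping reads were counted, and a read lying wholly within such a stretch has no unique place. Exons of the alpha row overlap the opposite-strand gene Gm10545 and those of the gamma row overlap Gm16882. Use of strand in counting is not given in the sources used here, and reads of these pairs cannot be told apart.

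Whole reads could be recovered from the deposited values and exon lengths, and libraries held 19403023 to 39257771 reads assigned to genes. Between 18.1% and 61.4% of these came from the 2 mitochondrial ribosomal RNA (rRNA) genes, the highest shares being those of both libraries of embryo M5, both of F7 and the lumbar library of F8. Pan-neuronal and sensory markers were present throughout, with summed levels of 1461 to 3469 RPKM (reads scaled to exon length and to library size) in lumbar and 644 to 2308 RPKM in sacral ganglia. All deposited libraries share the same median of 0.93 on the log2 RPKM scale over detected genes, so every level below is relative to that median.

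Protocadherin reads were plentiful. A library held 7657 to 42128 reads over the 25 members, with a median of 25297. The alpha row and Pcdha3 together took 52.2% ± 6.34 of them (SD, n = 20), the gamma row 29.0% ± 5.34 and the 22 beta genes together 18.8% ± 1.53. Each merged row has 9 first exons, fewer than the 14 alpha and 22 gamma genes that RefSeq names. Reads of variable exons outside these rows were not counted in them, so the shares depend on the annotation. Alpha reads outnumbered gamma reads in 19 of 20 libraries, the exception being the sacral library of F7, and gamma reads outnumbered beta reads in all 20. Of the alpha reads, 98.4% to 99.7% fell in the alpha row and the rest in Pcdha3. Any constant-exon reads of Pcdha3 transcripts would fall in the alpha row, so this split does not measure the isoform.

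**Figure D1:**
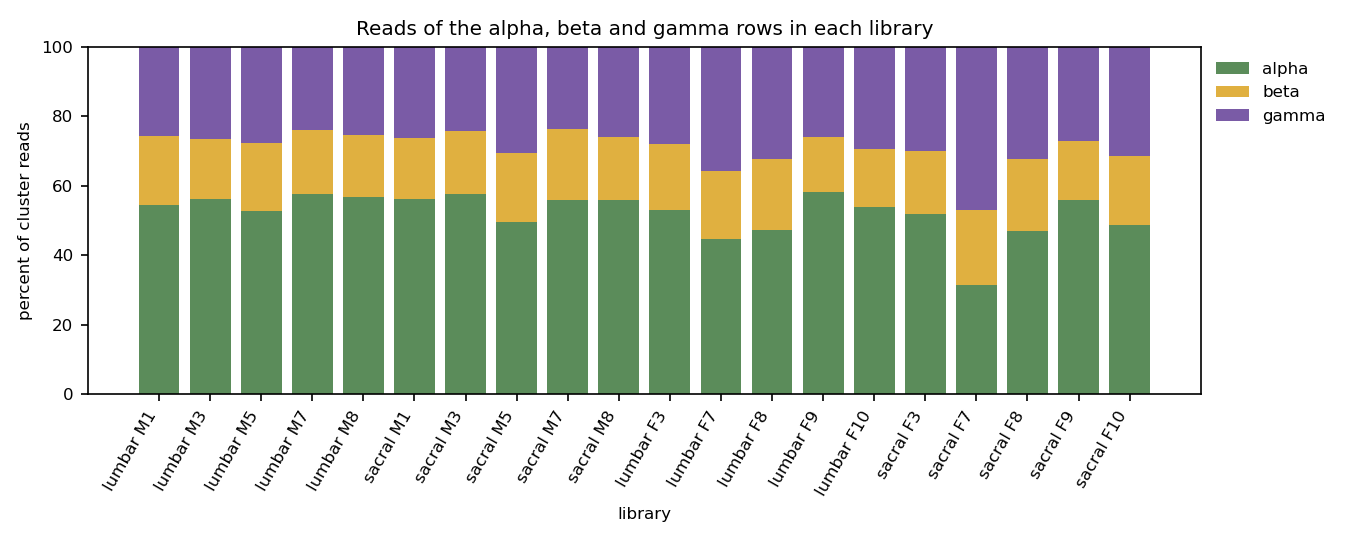
Percent of protocadherin reads (y axis) that fell in alpha, beta and gamma rows in each of the 20 libraries (x axis), grouped by sex and level. The beta share stays between 16.0% and 21.7%, while the alpha share is lowest (31.3%) and the gamma share highest (47.0%) in the sacral library of F7.

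Levels on the log2 RPKM scale, which is per base of exon, ranked the alpha row first with a mean of 4.04, the gamma row second with 2.97 and Pcdhb17 next with 2.41. RPKM of the alpha and gamma rows divides their reads by all exons annotated to the row at once, 24688 and 28980 bases. It cannot be set against a beta gene one for one. The alpha row stood above 87.3% of the 14529 genes that were tested, the gamma row above 71.1% and Pcdhb17 above 59.4%. Most other beta members lay in the lower part of the range of tested genes.

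Within the beta cluster the leading genes were similar from library to library, but many lower ranks were not stable. Pcdhb10 ranged from rank 3 to 20 and Pcdhb13 from 3 to 18, while Pcdhb11 stayed between 17 and 21. Pcdhb17 averaged 13.5% ± 1.48 of the summed beta RPKM (SD, n = 20) and ranked first or second in every library. Pcdhb16 held up to 14.4% and was among the top 3 in 19 of 20 libraries. Pcdhb14 followed with 6.79% ± 1.22 and Pcdhb22 with 6.62% ± 1.30, and the order of this pair was not stable, Pcdhb14 being the higher in 12 of 20 libraries. Pcdhb17 exceeded Pcdhb16 in 19 of 20 libraries, and Pcdhb16 exceeded Pcdhb14 in 19 of 20. The 3 leading genes together made up 25.9% to 37.2% of the summed beta RPKM. Rank correlations of the 18 tested beta members between pairs of libraries had a median of 0.72 and ran from 0.36 to 0.95 over 190 pairs, which share annotation, exon lengths and base composition.

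At the other end, Pcdhb1 was at the limit of detection. It had 1 read in total, in the lumbar library of M3, and no read in the other 19 libraries, where a count of 0 allows a level of up to 0.0295 to 0.0745 RPKM depending on depth (3 reads, counting error only). The same 20 libraries held 11071 reads of Pcdhb17. The next lowest members were Pcdhb5, with a mean log2 RPKM of −0.66, Pcdhb11 with −0.63 and Pcdhb12 with −0.26. These 4 genes did not reach a mean log2 RPKM of 0 (a geometric mean of 1 RPKM) in any group and were not tested. Pcdhb12 missed the filter narrowly, with a highest group mean of −0.003, and the tested member closest to it was Pcdhb3, with 0.14.

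Levels tended to be higher toward the gamma side of the beta cluster. Over the 21 beta genes with reads throughout, position along the chromosome and mean log2 RPKM had a Spearman correlation of 0.47, given as a description of genes that share libraries and sequence. The 12 genes from Pcdhb2 to Pcdhb13 had a median level of 0.36 and ranged from −0.66 to 1.01, whereas the 9 genes from Pcdhb14 to Pcdhb22 had a median of 1.23 and ranged from 0.09 to 2.41. Exon length followed level less closely, with a Spearman correlation of 0.16 over the same 21 genes.

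**Figure D2:**
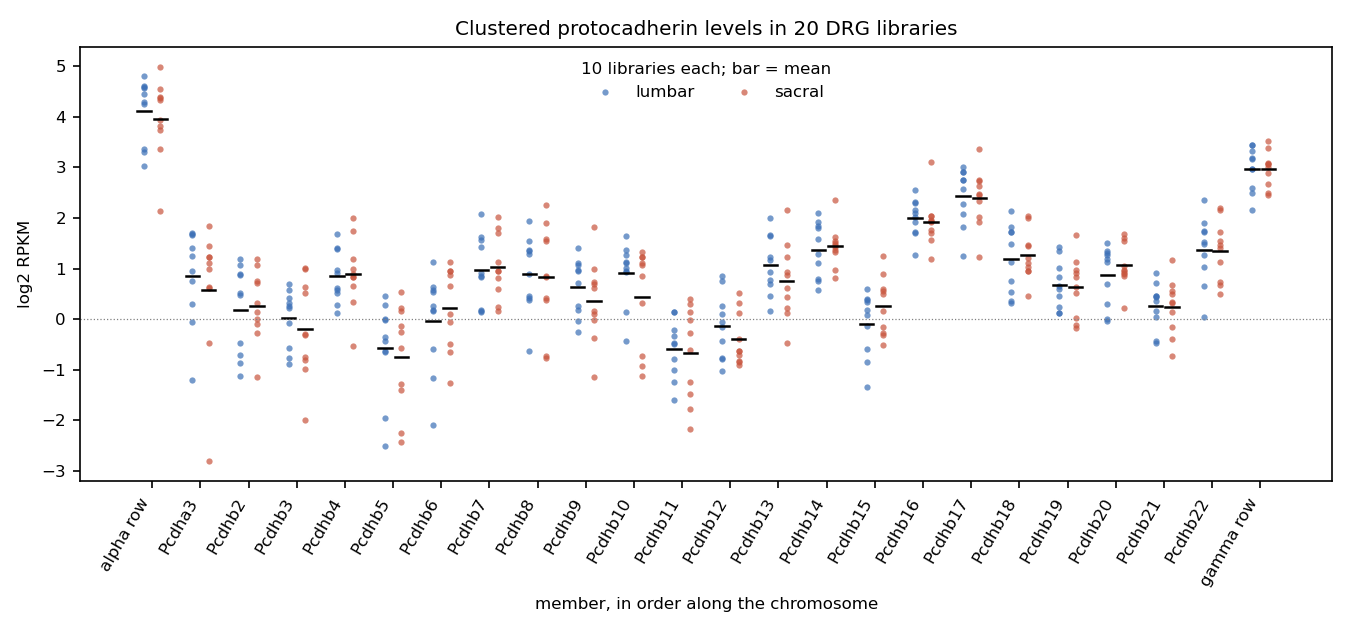
Log2 RPKM (y axis) of the 24 members with reads in all libraries, in order along the chromosome (x axis); each point is 1 library (blue lumbar, red sacral, 10 each) and black bars are means. The alpha row, gamma row, Pcdhb17 and Pcdhb16 lie highest, and lumbar and sacral points overlap for every member.

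The central comparison was sacral against lumbar ganglia of the same embryos, and no clustered protocadherin passed the test. None of the 21 tested members passed an adjusted p of 0.05 in limma, while 978 of 14529 genes passed (6.73% of those tested). No member had an unadjusted p under 0.05, against 3501 of the 14529 genes. Among the members 8 of 21 had a positive sacral minus lumbar difference, and the median difference over members was −0.02 on the log2 scale against −0.05 over all tested genes. This tally turned with single embryos: without M8 it was 14 of 21 with a median of 0.04, and without M7 it was 5 of 21 with a median of −0.11. Without M5, F7 and F8 it was 3 of 21 with a median of −0.13. Differences ran from −0.48 for Pcdhb10 to 0.37 for Pcdhb15. The 95% intervals, which are not adjusted for the number of members, lay wholly within −1 and 1 for 19 of the 21 and wholly within −0.5 and 0.5 for 10. A difference of 2-fold between levels was thus outside the interval for all tested members except Pcdhb10 and Pcdha3, whereas smaller differences were not resolved for many of them.

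The alpha row carried the most reads of any member, 2509 to 23634 per library. Its log2 RPKM was 4.26, 4.61, 3.30, 4.45 and 4.82 in lumbar ganglia of males M1, M3, M5, M7 and M8, and 4.40, 4.54, 3.37, 4.99 and 4.33 in their sacral ganglia. In females F3, F7, F8, F9 and F10 it was 4.58, 3.02, 3.37, 4.56 and 4.28 in lumbar and 4.38, 2.14, 3.81, 3.93 and 3.74 in sacral ganglia. Lumbar and sacral values overlapped in both sexes, and both libraries of M5 and F7 and the lumbar library of F8 were among the low ones. Sacral exceeded lumbar in 3 of 5 males and 1 of 5 females, and the limma difference was −0.16 ± 0.21 (SE; 10 embryos) with an adjusted p of 0.66. Pcdha3, the alpha isoform with its own row, had 8 to 271 reads per library and was the most variable tested member. Its log2 RPKM ran from −1.20 through a median of 1.10 to 1.71 in lumbar and from −2.81 through 1.05 to 1.83 in sacral ganglia. Its paired differences spanned −2.76 in F7 to 2.43 in F8, with 4 of 10 embryos higher in sacral ganglia and a limma difference of −0.27 ± 0.38 (adjusted p = 0.70).

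The gamma row had the smallest spread within groups of any tested member. In lumbar ganglia its log2 RPKM was 2.96, 3.32, 2.16, 2.96 and 3.45 in M1, M3, M5, M7 and M8, and 3.44, 2.49, 2.60, 3.18 and 3.19 in F3, F7, F8, F9 and F10. Sacral values were 3.08, 3.08, 2.45, 3.53 and 3.01 in the males and 3.38, 2.50, 3.07, 2.68 and 2.89 in the females. The levels overlapped almost completely, with 5 of 10 embryos higher in sacral ganglia. The limma difference was −0.01 ± 0.14 (95% interval −0.29 to 0.28, adjusted p = 0.98), the narrowest interval of any member.

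The 3 highest beta genes did not pass the test for level either. Pcdhb17 ranged from 1.24 through a median of 2.66 to 3.0 in the 10 lumbar libraries and from 1.22 through 2.46 to 3.37 in the 10 sacral libraries, and 4 of 10 embryos were higher in sacral ganglia (limma difference −0.04 ± 0.18, adjusted p = 0.91). Pcdhb16 ran from 1.26 through 2.05 to 2.55 in lumbar and from 1.19 through 1.93 to 3.11 in sacral ganglia, and Pcdhb14 from 0.57 through 1.44 to 2.10 and from 0.82 through 1.44 to 2.35. Pcdhb16 differed by −0.08 ± 0.16 (adjusted p = 0.78), with 3 of 10 embryos higher in sacral ganglia, and Pcdhb14 by 0.06 ± 0.16 (adjusted p = 0.83), with 6 of 10. The lumbar and sacral ranges overlapped for all 3 genes, and the highest Pcdhb16 value was that of sacral M7.

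The beta genes with the smallest p values also failed the threshold. Pcdhb15 had log2 RPKM values of 0.07, −0.14, −1.35, 0.17 and 0.37 in lumbar and 0.89, 0.50, −0.27, 1.24 and 0.16 in sacral ganglia of M1, M3, M5, M7 and M8. In F3, F7, F8, F9 and F10 it had 0.60, −0.84, 0.34, −0.59 and 0.39 in lumbar and 0.60, −0.52, −0.16, −0.32 and 0.56 in sacral ganglia. Sacral exceeded lumbar in 4 of 5 embryos of each sex, yet the groups overlapped, and the difference was 0.37 ± 0.21 (adjusted p = 0.28). Pcdhb10 ran from −0.44 through 1.05 to 1.64 in lumbar and from −1.13 through 0.96 to 1.33 in sacral ganglia. Its limma difference was −0.48 ± 0.27 (adjusted p = 0.29), with lower sacral values in 7 of 10 embryos, and its paired difference was −2.30 in F9, far from the next embryo at −0.86. Pcdhb13 ran from 0.16 through 1.05 to 2.0 in lumbar and from −0.48 through 0.74 to 2.16 in sacral ganglia. It was lower in sacral ganglia of all 5 females and of 3 of 5 males, with a limma difference of −0.31 ± 0.21 (adjusted p = 0.38).

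**Figure D3:**
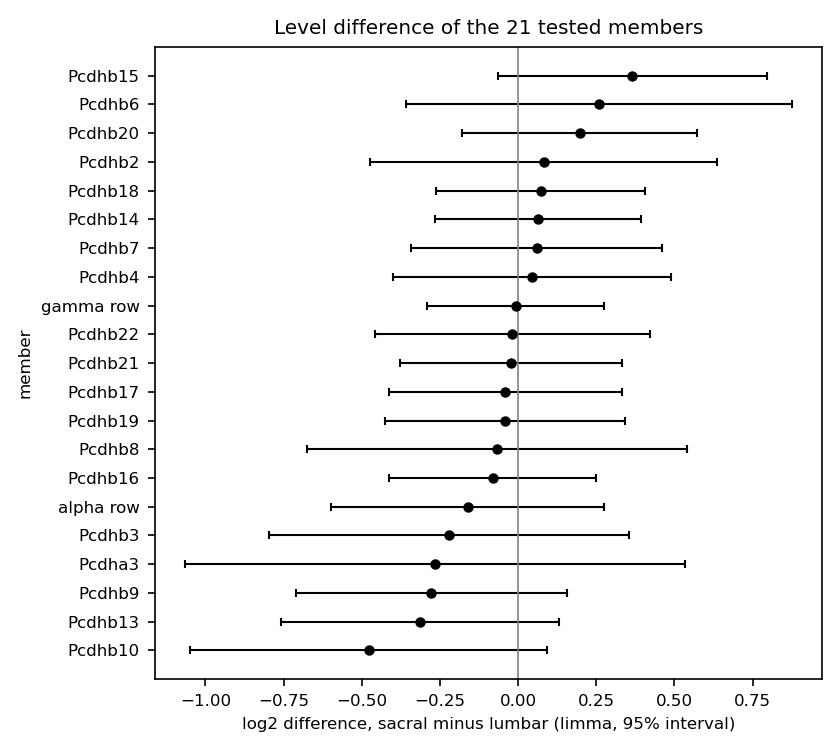
Limma log2 difference, sacral minus lumbar (x axis), with its unadjusted 95% interval for each of the 21 tested members (y axis). Every interval includes 0, and the points run from −0.48 for Pcdhb10 to 0.37 for Pcdhb15.

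Sums over each cluster also overlapped between the levels. In males the summed RPKM of the beta cluster was 45.3 ± 13.04 at the lumbar and 47.5 ± 17.8 at the sacral level (SD, n = 5 each). In females it was 38.7 ± 13.1 and 35.8 ± 11.4. The paired log2 ratio of sacral to lumbar was −0.03 ± 0.38 for the beta cluster, −0.17 ± 0.50 for the alpha cluster and −0.01 ± 0.37 for the gamma cluster (SD, n = 10 embryos). Each mean was smaller than its SD, and the ratio was above 0 in 3, 3 and 5 of 10 embryos. No test was made of these sums, since they run over chosen genes. Shares of reads, which do not depend on scaling between libraries, had a log2 ratio of sacral to lumbar of −0.08 ± 0.16 for alpha, 0.05 ± 0.12 for beta and 0.07 ± 0.14 for gamma. This ratio was above 0 in 2, 8 and 7 of 10 embryos, and it was not tested.

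Paired differences spread widely between embryos, and in some embryos most members had the same sign. In M7, 20 of the 21 tested members were higher in sacral than in lumbar ganglia, with a median difference of 0.67, and in F8, 18 of 21 were, with a median of 0.47. The opposite was seen in M8, with 1 of 21 members higher and a median of −0.48, and in F9, with 5 of 21 and −0.43. The split was more even in M1, M3, M5, F7 and F10, where 13, 10, 11, 9 and 8 of 21 members were higher. Of all tested genes 51.2%, 46.4%, 42.6% and 47.4% were higher in the sacral library of M7, F8, M8 and F9. The sacral library held 14.1 percentage points more mitochondrial rRNA than the lumbar library in M8 and 17.8 more in F9. The same difference was −5.99 in F8 and −2.01 in M7, whereas F3, at −5.47, had 6 of 21 members higher. With that share as a covariate, 10 of 21 members had a positive difference between the levels and none passed the threshold.

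**Figure D4:**
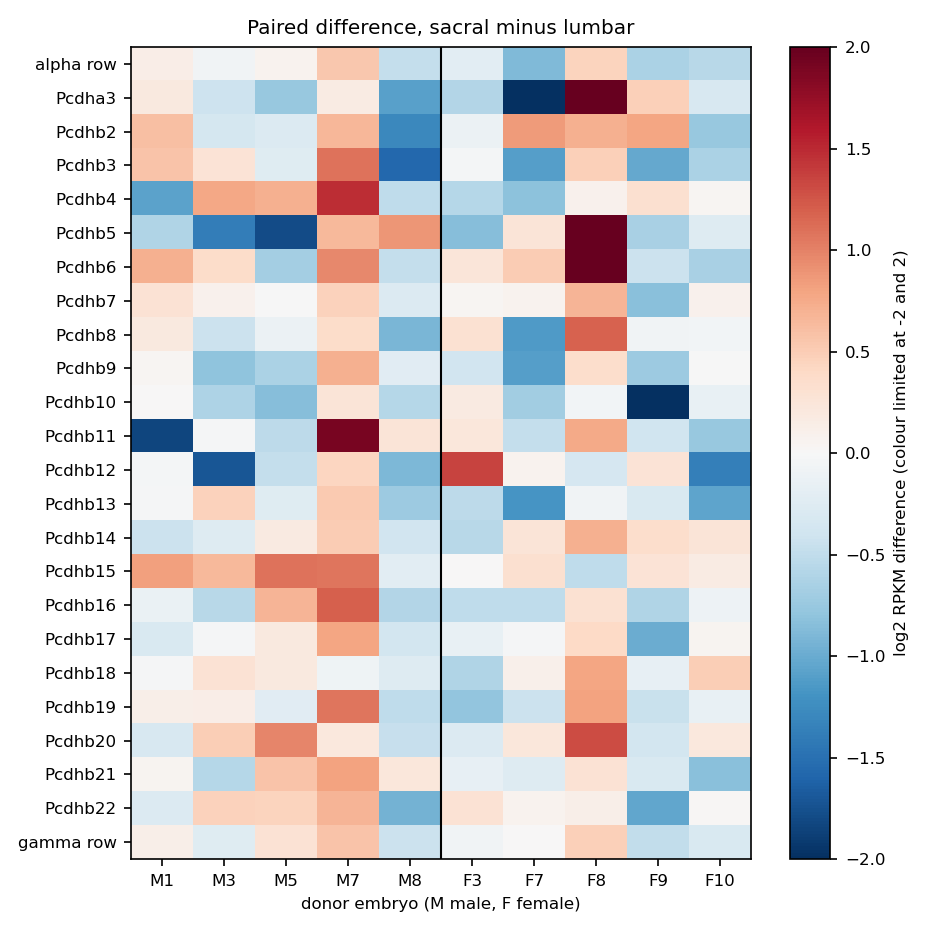
Paired log2 RPKM difference, sacral minus lumbar (colour, limited at −2 and 2), for the 24 members with reads in all libraries (y axis, chromosomal order) in each donor embryo (x axis, males left of the line). M7 and F8 are mostly red (higher in sacral), M8 and F9 mostly blue.

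Members also varied together across libraries. After the 4 group means were removed, the 210 pairs of tested members had a median correlation of 0.74 over the 20 libraries and ranged from 0.45 to 0.92, a description of genes measured in the same libraries. The SD within groups had a median of 0.61 on the log2 scale over the 21 members, against 0.37 over all tested genes. It was 0.70 for the alpha row, 0.41 for the gamma row and 0.56 for Pcdhb17.

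Female and male embryos were compared within each level. In lumbar ganglia 48 of 14529 genes passed the threshold (0.33%), and in sacral ganglia 147 did (1.01%). No member was among them. An unadjusted p under 0.05 was found for 1 of 21 members in lumbar and 3 of 21 in sacral ganglia. Over all 14529 genes it was found for 1203 and 2256, so the members' shares did not exceed those of all genes. Differences leaned to lower values in females, with 17 of 21 members negative in lumbar and 20 of 21 in sacral ganglia, and medians of −0.20 and −0.50 against 0.02 and −0.03 over all tested genes. As the members move together, these 21 directions are not independent, and no member passed the threshold. The lumbar median was −0.49 without M5, −0.45 without F3 and −0.07 without F7, and the sacral median was −0.31 without M7 and −0.27 without F7. With the mitochondrial rRNA share as a covariate the medians were −0.17 in lumbar and −0.35 in sacral ganglia. Male and female libraries also carry different number series in their titles. An effect tied to that numbering cannot be told apart from sex. Pcdhb18, named here after its values were seen, had the smallest p at both levels. Its log2 RPKM in lumbar ganglia was 1.48, 1.72, 0.75, 2.14 and 1.73 in M1, M3, M5, M7 and M8 and 1.82, 0.36, 0.31, 1.12 and 0.54 in F3, F7, F8, F9 and F10. Its sacral values were 1.45, 2.01, 0.95, 2.05 and 1.47 in the males and 1.21, 0.45, 1.10, 0.95 and 1.04 in the females. The sexes overlapped at both levels, and the limma differences, female minus male, were −0.73 ± 0.28 (adjusted p = 0.45) and −0.63 ± 0.28 (adjusted p = 0.29). The alpha row differed by −0.32 ± 0.37 in lumbar and −0.73 ± 0.37 in sacral ganglia (adjusted p = 0.88 and 0.35), and the gamma row by 0.01 ± 0.24 and −0.13 ± 0.24.

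A sex difference in the effect of level was tested as an interaction, the sacral minus lumbar difference in females less that in males. It reached the threshold for 0 of 14529 genes in limma (0%). Of the 21 members 0 had an unadjusted p under 0.05, against 470 of the 14529 genes. Within males 67 genes (0.461%) and within females 128 genes (0.881%) differed between the levels, in neither case a member. Over members the median sacral minus lumbar difference was 0.06 within males and −0.14 within females.

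The members did vary with the share of mitochondrial rRNA in the library, a comparison that was added after the values had been seen. In a limma model with the 4 groups and the embryo as a block, all 21 tested members fell as the share rose, by 0.22 to 0.58 on the log2 scale for each 10 percentage points. Such a fall was common: 5269 of 14529 genes passed in this direction (36.3%), and 7646 passed in either direction (52.6%). The steepest slopes were those of Pcdhb6, −0.58 ± 0.10 (adjusted p = 0.00013), and Pcdhb8, −0.58 ± 0.11, while Pcdhb16 had the shallowest, −0.22 ± 0.07 (adjusted p = 0.011). The slope of the alpha row was −0.45 ± 0.07 (adjusted p = 4.5e-05), that of Pcdha3 −0.55 ± 0.17 (adjusted p = 0.011) and that of the gamma row −0.30 ± 0.04 (adjusted p = 9.3e-06). Members lay between the lowest 0.062% and the lowest 19.2% of all slopes. The median slope was −0.35 over members and −0.06 over all tested genes.

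The number of members past the threshold changed with the scaling of the libraries and the choice of embryos. Each library was also rescaled by its share of reads outside mitochondrial rRNA. The deposited values already share a median, so this step came on top of that scaling and can correct for the rRNA more than once. It does not give levels per read outside mitochondrial rRNA. With it the median slope of all genes moved from −0.06 to 0.18 and that of the members to −0.11, with Pcdhb16 alone above 0. Relative to the median gene the members' slope was −0.29 under both scalings. On the rescaled values 5 of 21 members passed the threshold in the lower direction, namely the alpha row, Pcdhb2, Pcdhb6, Pcdhb8 and Pcdhb22, as did 2.12% of all genes. Rescaling shifts all genes of a library alike. Without M5, F7 and F8, the 3 embryos with the highest mean share, 0 of 21 members passed the threshold. Of the members 7 had an unadjusted p under 0.05, and their median slope was −0.20. Without these embryos 217 of 14529 genes passed in the lower direction, and 3346 had an unadjusted p under 0.05. With the embryo as a fixed block, which compares only its 2 libraries, 0 of 21 passed, 5 had an unadjusted p under 0.05 and the median was −0.26, with 1 of 21 slopes above 0. Over all 14529 genes 106 passed in the fit with a fixed block, 99 in the higher direction and 7 in the lower. In the same fit 2478 genes had an unadjusted p under 0.05.

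No tested member was above its own mean in either library of M5 or of F7, and all 21 were above it in the lumbar library of M8 and the sacral library of M7. The mitochondrial rRNA share in these libraries was 61.4% and 49.9% in M5 and 49.3% and 45.2% in F7, against 20.8% in lumbar M8 and 28.8% in sacral M7. The upper quartile of log2 RPKM over detected genes also varied, from 2.30 in sacral F7 to 2.72 in lumbar M8. Of the neuronal markers 14 of 15 fell with the share past the threshold, with a median slope of −0.29, against 36.3% of all tested genes. Of 8 tested glial markers 3 fell, near that background, and 1 rose. In the higher direction 2377 of all 14529 tested genes passed. Of 9 fibroblast and meningeal markers 1 rose and none fell. Among the other lists, 2 of 4 cartilage, 2 of 5 endothelial and 1 of 3 erythroid markers rose, 1 endothelial marker and the only spinal cord marker tested fell, and no muscle or macrophage marker passed. The part of RNA quality, library scaling or the share of neurons in the ganglion in the members' slope was not tested. In whole ganglia, fewer neurons and less RNA per neuron cannot be told apart.

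**Figure D5:**
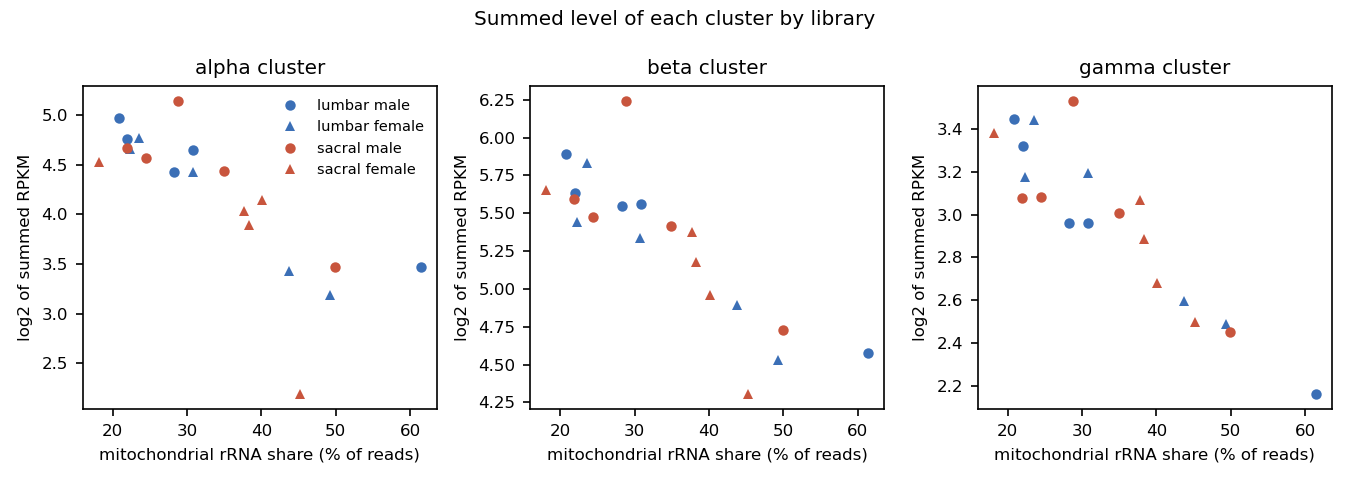
Log2 of the summed RPKM of the alpha, beta and gamma clusters (y axes) against the percent of reads from the 2 mitochondrial rRNA genes (x axis); each point is 1 library (circles male, triangles female, blue lumbar, red sacral). The summed level is lower in libraries with a higher share in all 3 panels, and the sacral library of M7 lies highest in each.

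Markers of several cell types differed between the levels. Over all 14529 tested genes, 586 passed the threshold as lower and 392 as higher in sacral ganglia, with a median difference of −0.05. Of the neuronal markers, 3 of 15 were lower in sacral ganglia, and none was higher, with a median difference of −0.32. The 3 lower neuronal markers were the neurofilaments Nefm, −1.14 ± 0.21, and Nefl, −0.90 ± 0.18, and the synaptic protein gene Snap25, −0.60 ± 0.14. Of the glial markers 4 of 8 were lower, and of the fibroblast and meningeal markers 5 of 9 were higher, with a median of 0.51. Summed glial markers ranged from 233 to 340 RPKM in lumbar and 161 to 278 RPKM in sacral ganglia, and summed fibroblast and meningeal markers from 214 to 480 and 287 to 628 RPKM. In cartilage markers 2 of 4 and in endothelial markers 2 of 5 were higher, and no muscle, erythroid, macrophage or spinal cord marker passed. The part of this makeup in the protocadherin values was not tested.

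Genes known to act on these clusters were examined as lists. The chromatin list (CTCF, cohesin subunits and loaders, DNA methyltransferases, histone deacetylases and other factors bound to protocadherin promoters) had 19 of 22 names tested, and 0 of 19 passed for level, for sex in either level or for the interaction. Its median sacral minus lumbar difference was 0.06. With the mitochondrial rRNA share 7 of 19 fell, near the background of 36.3% of all tested genes, and the list's median slope was −0.02. The partner list (kinases, proteases, and adhesion and actin-regulating proteins known to bind or process protocadherins) had 18 of 20 tested. For level 1 of 18 passed, near the background of 6.73%, namely Wasf2, an actin regulator of the WAVE complex (0.26 ± 0.08, adjusted p = 0.049). Of the same 18 genes 10 fell with the mitochondrial rRNA share, against 36.3% of all tested genes, and 1, Pdcd10, rose. Ret, the receptor of GDNF family ligands that binds clustered protocadherins, had the steepest slope, −0.50 ± 0.08, and the protease Adam10, which cleaves protocadherins, had a slope of −0.23 ± 0.04.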

How the data were processed

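Whole lumbar (L4-L5) and sacral (L6-S1) ganglia of 10 mouse embryos were profiled by RNA-seq after whole-transcript amplification. The authors aligned reads to mm9 with Subread, kept uniquely mapping reads, counted them over Ensembl 67 genes with featureCounts, scaled libraries by TMM with voom and deposited log2 RPKM values, blank where a gene had no read. Per the labels the tools were Subread 1.18 and 1.20.6, limma 3.26.9 and edgeR 3.12.1.

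From the deposited log2 values, whole reads were recovered with exon lengths of GENCODE M1 on the same build (37205 of 37620 gene IDs matched). Of the values, 98.3% fell within 0.05 of a whole read. Blanks were set to the value of 0.5 reads. Genes with a mean of at least 1 RPKM (log2 of 0) in 1 or more of the 4 groups were tested, 14529 in all, with limma 3.58.1 in R 4.3.3, 4 group means, an empirical Bayes trend, Benjamini-Hochberg adjustment over all genes tested and a threshold of 0.05, two-sided. The embryo entered as a block, as in the study, because both libraries of a number come from the same animal, and the estimated correlation was 0.34. ± is the SE for a limma difference and the SD elsewhere, as stated.

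The members and gene lists were chosen with earlier results of these data known. Members named with full values were those past a threshold, the 3 highest, the 3 with the smallest p for level and the lowest of each cluster. Other named members were chosen after their values were seen. The slope on the mitochondrial rRNA share, the leave-out of 3 embryos, the rescaling and the within-sex fits were added after the values were seen. The closest pair of libraries correlated at 0.955 and differed in 22174 genes, so none was treated as a duplicate. Intervals and the limit for a count of 0 cover counting error or the fitted spread only. The fit was tested on simulated data.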

Additional observations from a re-analysis of the deposited data

Results flagged for a closer look

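In 147 groups of samples, 12 values lay farther from the nearest other sample of their group than Dixon's 95% criterion allows. For independent groups chance gives about 1 in 20. These groups reuse the same 20 libraries and members move together, so 12 of 147 cannot be judged against that rate. All 12 values came from 4 embryos. In the sacral library of F7 the log2 RPKM was 2.14 for the alpha row (nearest female 3.74), −2.81 for Pcdha3 (nearest 0.63) and −0.54 for Pcdhb4 (nearest 0.65), and in its lumbar library it was −0.44 for Pcdhb10 (nearest 1.002). The gamma share of protocadherin reads in the sacral library of F7 was 47.0%, against 32.3% in the nearest female. In M5 the log2 RPKM was −1.27 for Pcdhb6 in sacral ganglia (nearest male 0.65), and in lumbar ganglia −0.62 for Pcdhb8 (nearest 1.28) and −0.029 for Pcdhb20 (nearest 1.199). The alpha share of protocadherin reads in sacral M5 was 49.5%, against 56.0% in the nearest male. The sacral library of M7 lay high, with 3.11 for Pcdhb16 (nearest 1.96) and 0.53 for Pcdhb12 (nearest −0.64). The paired difference of Pcdhb10 was −2.30 in F9, with the next embryo at −0.86.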

How the results depend on the processing

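No member passed the threshold for level, for sex in either level or for the interaction under any alternative run (filters of 0.1 RPKM, none, or on the arithmetic mean; log2(RPKM + 1); array weights; quantile normalization; the mitochondrial rRNA share as a covariate; no replicate block; the block as fixed terms, which was fitted for level and interaction only; rescaling; leaving out embryos). The slope on the mitochondrial rRNA share did change. Of 21 members 0 passed with the replicate block as fixed embryo terms and 0 without M5, F7 and F8. Of 14529 genes 7 and 217 passed in the lower direction in these fits. After rescaling on top of the shared median 5 members passed, and leaving out 1 embryo at a time gave 15 (without M5) to 21. Level differences near 0 changed sign without passing the threshold: the gamma row was 0.011 with the share as a covariate and 0.046 after quantile normalization, and Pcdhb14 was −0.028 with array weights and −0.061 without M5, F7 and F8. Leaving out 1 embryo moved Pcdha3 between −0.588 and 0.061, the gamma row between −0.076 and 0.054, Pcdhb17 between −0.132 and 0.065, Pcdhb16 between −0.215 and 0.0069 and Pcdhb14 between −0.010 and 0.158. Counts over all genes moved more. For level, 978 became 154 with no replicate block, 792 with fixed terms, 509 with no filter, 2998 with array weights and 400 to 1594 without 1 embryo. For sex they ran from 14 to 228 in lumbar and 55 to 751 in sacral ganglia, and for the slope 7646 became 106 with fixed terms and 453 without the 3 embryos. The causes were not tested. A difference in Pcdhb1, with 1 read in all, was not detectable at this depth, and the merged alpha and gamma rows cannot show changes between isoforms.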
